A study of Homo sapiens with 3 samples.

Results

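MIR221 and MIR222 are the genes of the precursors of 2 related microRNAs, miR-221 and miR-222. They are the 2 members described here, of 1018 miRNA precursor genes and 22395 genes measured on the arrays. Each was taken as the probe set that names it alone in the platform annotation, and each has 1 such probe set (17110365 for MIR221 and 17110367 for MIR222). The pair was chosen by its differences among these 3 arrays. Its levels and differences are therefore given as a description, and no test was made on them.

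The arrays were made from HEK293T cells, an established line from human embryonic kidney with the large T antigen of SV40. One field of the labels spells the line HEK239T. All cells were transduced with a lentivirus and kept under puromycin. The 3 groups were cells with the TRAF7 G536S mutant in the vector pCDF1, cells with wild-type TRAF7 in pCDF1, and cells with the empty pCDF1 vector, with 1 array each. TRAF7 is a RING-type ubiquitin ligase that ends in WD40 repeats. The labels do not say whether the selected cells were a pool or a clone. With 1 array per group no p-value or standard error exists, and what separates 2 arrays may lie in the cultures, the extractions or the hybridisations as much as in the constructs. All values are log2 intensities made by the authors with RMA, which corrects background, normalises between arrays and summarises each probe set. The small number of arrays is what limits precision.

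A miRNA is made from a long primary transcript. The nuclear enzyme DROSHA cuts out a hairpin, DICER1 in the cytoplasm trims it to a short duplex, and one strand is loaded into an Argonaute protein, where its seed (bases 2 to 8) pairs with target messages. miR-221 and miR-222 are known in many tumours for lowering the cell cycle inhibitor CDKN1B and the receptor KIT, and their genes are known targets of the AP-1 subunits JUN and FOSL1. The arrays were hybridised with labelled cRNA from total RNA, so the probe sets read precursor or primary transcript, and the mature miRNAs were not measured. Which part of the transcript each probe set reads was not determined.

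The sequences are shown because they are what makes the 2 genes a family. In RefSeq (GRCh38.p14, 2 of 2 members matched) the MIR221 hairpin lies at chrX:45746157-45746266 and the MIR222 hairpin at chrX:45747015-45747124, both on the minus strand, with 748 bases between them. Both lie within the span of the long noncoding RNA gene MIR222HG. Whether they are exonic or intronic in it was not determined. In the mature sequences the capitals mark the seed, and in the hairpins they mark the mature 3p strand.
miR-221-3p: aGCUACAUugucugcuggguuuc
miR-222-3p: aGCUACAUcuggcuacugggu
miR-222-5p: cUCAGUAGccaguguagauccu
MIR221 hairpin: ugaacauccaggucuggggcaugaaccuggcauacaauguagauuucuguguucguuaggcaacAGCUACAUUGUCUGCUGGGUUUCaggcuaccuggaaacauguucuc
MIR222 hairpin: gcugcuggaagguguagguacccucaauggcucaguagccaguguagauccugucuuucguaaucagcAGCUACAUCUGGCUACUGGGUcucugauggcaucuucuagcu

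The first 8 bases of both 3p strands are identical, and the seed GCUACAU is held by 2 of the 2545 mature miRNAs in the table, which are these 2. After the shared start the 3p strands diverge. Over the whole 3p strands, the shared start included, 18 of 24 aligned positions match. Each hairpin is 110 bases long. The mature 3p strand occupies bases 65 to 87 of the MIR221 hairpin and bases 69 to 89 of the MIR222 hairpin, that is, the 3′ arm of each. Over the whole hairpins 74 of 122 aligned positions match (60.7%). The seed UCAGUAG of miR-222-5p is held by 1 mature miRNA in the table.

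TRAF7 itself served to check the label of the empty vector array against those of the 2 construct arrays. Its probe set read 7.35 with G536S, 8.11 with wild-type TRAF7 and 5.66 with the empty vector. Both construct arrays were thus above the empty vector array, and G536S was below wild type by a difference of -0.76. These values do not show which construct array had the mutant, so a swap of those 2 labels would not be seen. Array medians over 53617 probe sets were 1.01 with G536S, 1.02 with wild type and 1.04 in empty vector cells, and pairwise correlations ran from 0.982 to 0.989. Of the 10 genes set as HEK293 lineage markers, 9 were measured and 6 passed the level filter. INA, a neuronal intermediate filament that this kidney line is known to express, read 6.35 with G536S, 5.91 with wild type and 6.25 in empty vector cells. NEFL, another neuronal filament, read 5.62 with G536S, 6.26 with wild type and 6.01 in empty vector cells. It had the same order of arrays as the 2 precursors and, at -0.64 for G536S against wild type, was the 1 lineage marker 1.5-fold apart. Over all genes past the filter 1.81% were 1.5-fold lower and 2.17% higher in that comparison. The part of NEFL in the results was not tested. The kidney factor PAX8 was near background (0.73, 0.74 and 0.77 in the same order of arrays). NEFM, also a neuronal filament, and KRT8 were below the filter too, with means over the 3 arrays of 1.02 and 0.90. Past it, CDH2 had a mean of 4.63, PAX2 of 1.64, LHX1 of 1.37 and KRT18 of 1.21. INA and NEFL were thus the highest of the 9 lineage markers measured, and most of the others were low. The identity of the line was not tested. Of 10 markers of leukocytes, fibroblasts and endothelium, 8 were measured and 2 passed the filter. These were the fibroblast marker COL1A1, with a mean of 2.55 over the 3 arrays, and the leukocyte marker CD79A, with a mean of 1.33. COL1A1 thus had a higher mean than the lineage markers PAX2, LHX1 and KRT18. The leukocyte marker PTPRC, below the filter, read 0.83 with G536S, 0.84 with wild type and 0.95 in empty vector cells.

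The MIR221 probe set gave one of the highest values among the precursors. It read 3.36 with G536S, 5.61 with wild-type TRAF7 and 4.64 with the empty vector. The wild-type array was the highest and the G536S array the lowest, with the empty vector between them. Against the 1018 precursors these levels stood at percentiles 98.7, 99.7 and 99.6 of their arrays in the same order, which describes the probe sets, since each has its own affinity. Its mean over the 3 arrays, 4.53, lay well above the level filter used here, 1.21, which is the median of all gene means. Of the 1018 precursors 169 passed that filter.

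MIR222 read 1.33 with G536S, 2.46 with wild-type TRAF7 and 1.76 with the empty vector. The order of the 3 arrays was the one seen for MIR221. Its percentiles among the precursors were 87.2, 97.2 and 94.0. The precursor median was 0.90 with G536S, 0.91 with wild type and 0.93 in empty vector cells, so the G536S value of MIR222 was close to the level at which most precursor probe sets sit, where RMA differences are compressed. MIR222 passed the level filter with a mean of 1.85. The levels of the 2 genes are not set against each other, since they come from different probe sets.

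**Figure D1:**
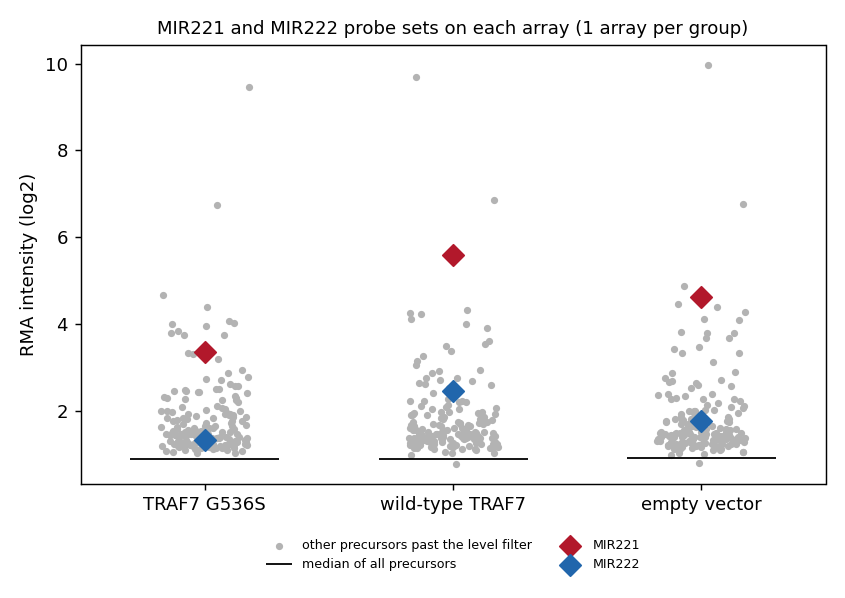
RMA intensity (log2) of MIR221 (red diamonds) and MIR222 (blue diamonds) on the G536S, wild-type and empty vector arrays, 1 array per group, with the other precursors past the level filter in grey and the median of all 1018 precursors as a black line. MIR221 reads 3.36, 5.61 and 4.64 and MIR222 reads 1.33, 2.46 and 1.76 from left to right, so both genes are highest with wild-type TRAF7 and lowest with G536S.

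For wild-type TRAF7, the wild-type array was set against the empty vector array. MIR221 was higher by 0.97 (1.96-fold) and MIR222 by 0.70 (1.62-fold). In bulk RNA, more cells that make the transcript and more of it per cell cannot be told apart. Both members were therefore at least 1.5-fold higher (0.58 on the log2 scale), a size passed in the same direction by 5.42% of the 11198 genes past the filter and 5.33% of the 169 precursors. MIR221 was the second highest of these precursors, after MIR648 at 1.06, and MIR3689F came next at 0.88. MIR222 was the fifth. The lowest were MIR3619 (-2.27), MIR378I (-1.43) and MIR574 (-1.42). The median gene past the filter was higher by 0.08. Quantile normalization moved that median by -0.10 and left MIR221 higher by 0.84 and MIR222 by 0.57, which is below 1.5-fold. Under that scaling the genes 1.5-fold apart were 350 higher and 383 lower, against 607 and 201 as deposited.

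For the mutant, the G536S array was set against the empty vector array. MIR221 was lower by a difference of -1.27 (2.42-fold), and MIR222 differed by -0.43 (1.35-fold). One of the 2 members was thus at least 1.5-fold lower, beside 2.08% of all genes past the filter and 8.28% of precursors. Only 8 genes past the filter had a lower difference than MIR221, and only 1 of them was a precursor, MIR3619 (-1.54). MIR924 followed at -1.21. The highest precursors were MIR548L (1.26), MIR3907 (1.14) and MIR544B (1.04). The median gene was higher by 0.10, and quantile normalization moved it by -0.12, with MIR221 then at -1.42 and MIR222 at -0.53. The genes 1.5-fold apart became 353 higher and 498 lower, against 680 and 233 as deposited. This comparison and the one before share the empty vector array.

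G536S was then compared directly with wild-type TRAF7, without the empty vector array. TRAF7 itself differed by -0.76 between these 2 arrays, and its part in the members' differences was not tested. MIR221 differed by -2.24 (4.73-fold lower) and MIR222 by -1.13 (2.19-fold lower). Both were at least 2-fold lower, beside 0.268% of all genes past the filter and 1.78% of precursors. MIR221 was the third lowest of the 11198 genes, with DUSP1 and RHOB below it, and MIR222 was number 21. Among the 169 precursors, the 3 that were at least 2-fold lower were MIR221, MIR924 (-1.42) and MIR222, and 0 were at least 2-fold higher. MIR3907 (0.99), MIR4673 (0.96) and MIR378I (0.96) had the highest differences. The 3 rescalings moved MIR221 between -2.26 and -2.24 and MIR222 between -1.14 and -1.10, and the median gene by at most 0.02 in size.

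**Figure D2:**
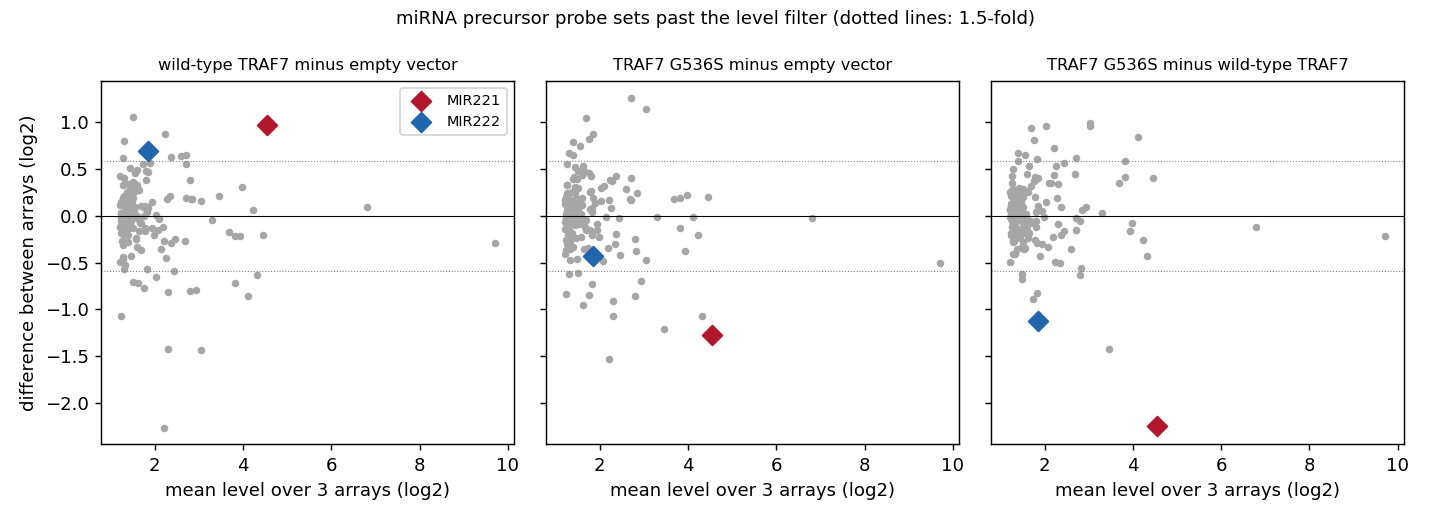
Difference between 2 arrays (log2, vertical axis) against the mean level over 3 arrays (log2, horizontal axis) for the 169 precursors past the level filter, one panel per comparison, with MIR221 in red, MIR222 in blue and dotted lines at 1.5-fold. In the right panel MIR221 lies at -2.24 and MIR222 at -1.13, and MIR924 at -1.42 is the only other precursor below -1.

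Precursors of similar level, within 1 log2 unit of a member's mean, give a closer background. For MIR221 there were 9: MIR1299, MIR647, MIR4442, MIR3143, MIR4454, MIR4525, MIR2909, MIR1910 and MIR4732. Of these, 5 lie within the span of a longer gene, which their probe sets could also read, as do 148 of the 169 precursors past the filter. The differences of the 9 ran from -0.86 to 0.31 for wild type against empty vector, from -1.07 to 0.23 for G536S against empty vector, and from -0.43 to 0.85 for G536S against wild type. MIR221 lay outside each of these ranges. MIR647 came nearest to it with G536S against the empty vector, at -1.07, but it was also lower with wild type (-0.64). MIR924, with a mean of 3.46, lay just below this window and is not among the 9. With G536S it differed by -1.21 from the empty vector and by -1.42 from wild type.

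For MIR222 the window held 657 precursors, most of them near background. Of these, 4 were as high as MIR222 or higher with wild type against empty vector, and 22 were as low or lower with G536S against empty vector. With G536S against wild type 0 of the 657 were as low. The nearest was MIR548H2 at -0.89. MIR222 was thus below its level group in the direct comparison and within the group in the other comparisons.

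Genomic clusters show how often neighbouring precursors differed together on these arrays. Measured precursors on the same chromosome and strand with a gap of at most 10 kb form 148 neighbouring pairs. MIR221 with MIR222 was the 1 pair in which both precursors passed the level filter, so every other pair holds at least 1 precursor near background. On the deposited values it was also the 1 pair with both precursors at least 1.5-fold higher with wild type against empty vector. After quantile normalization MIR222 fell below that size there (0.57). MIR221 with MIR222 was also the 1 pair with both at least 1.5-fold lower with G536S against wild type. The 2 members were chosen by these differences, so that they stand out is no test. No pair had both 1.5-fold apart with G536S against empty vector. Across the 148 pairs, which share arrays and mostly low signal, Pearson's r was 0.25, 0.20 and 0.48 for wild type against empty vector, G536S against empty vector and G536S against wild type. Without MIR221 and MIR222 it was 0.065, 0.078 and -0.0073.

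**Figure D3:**
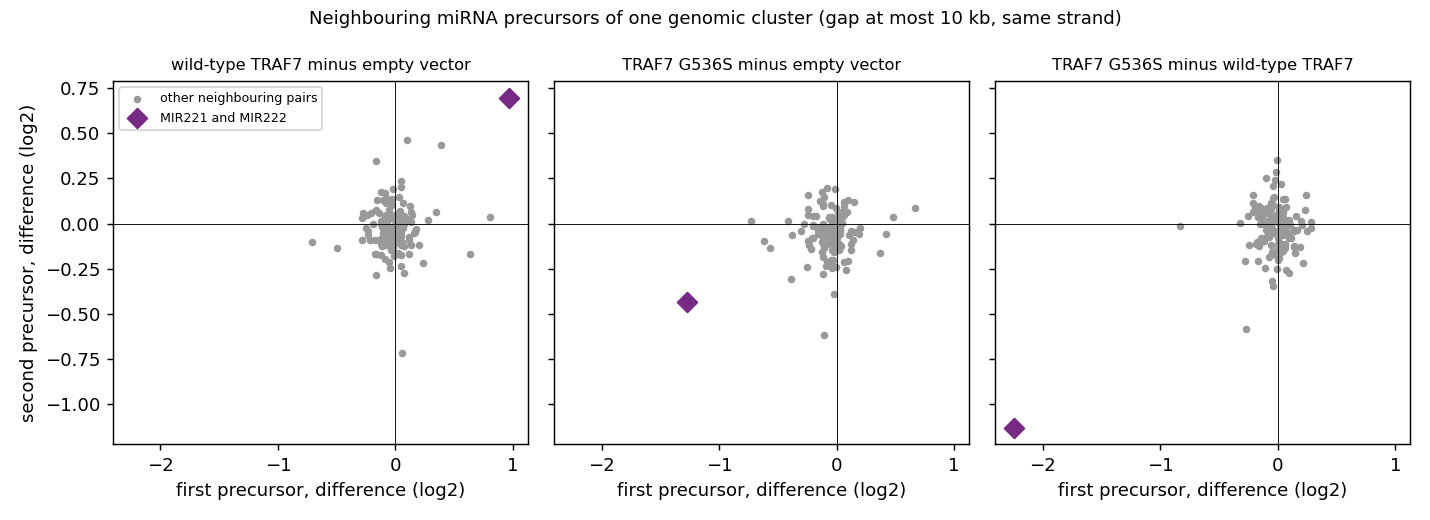
Differences between arrays (log2) of the first precursor (horizontal axis) and second precursor (vertical axis) of 148 neighbouring pairs in genomic clusters, one panel per comparison, with the pair of MIR221 and MIR222 as a purple diamond. The purple pair stands at -2.24 and -1.13 in the right panel, away from the other pairs, which gather around 0. The purple pair was chosen by its differences on these arrays, and every other pair holds at least 1 precursor near background.

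The genes around the pair on chromosome X did not have its order of arrays as a group. MIR222HG, the host transcript, has no value here, because no probe set names it alone. On the MIR222 side LINC02595, a noncoding RNA, read 1.57 with G536S, 1.45 with wild type and 1.60 in empty vector cells. KRABD4 read 1.84, 1.85 and 1.91 in the same order. Neither was 1.5-fold apart in any comparison. Beyond them, ZNF674, a zinc finger gene whose mean was below the filter, read 1.04 with G536S, 1.60 with wild type and 0.96 in empty vector cells, and ZNF674-AS1 read 2.57, 2.34 and 2.16.

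On the MIR221 side DIPK2B and DUSP21 were below the filter. KDM6A, a histone H3 lysine demethylase, read 4.39 with G536S, 4.41 with wild type and 4.28 in empty vector cells, which differ by 0.13 at most. FUNDC1, a mitophagy receptor, read 2.29 with G536S, 2.71 with wild type and 1.71 in empty vector cells. It was higher than the empty vector by 0.58 with G536S and by 1.00 with wild type, which for G536S is the opposite direction to MIR221.

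**Figure D4:**
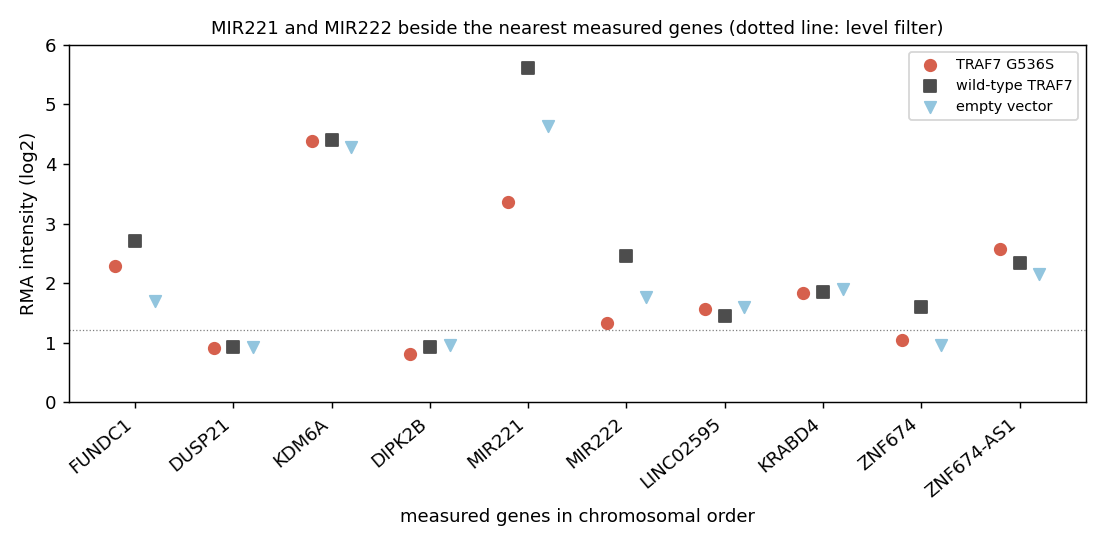
RMA intensity (log2) of MIR221, MIR222 and the 4 nearest measured genes on each side in chromosomal order, with circles for G536S, squares for wild-type TRAF7 and triangles for the empty vector, 1 array each. MIR221 spans 3.36 to 5.61, whereas KDM6A, DIPK2B and DUSP21 on one side and LINC02595 and KRABD4 on the other have nearly the same level on all 3 arrays.

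The promoter of MIR222HG is shown because both members lie within this transcript and had the same order of arrays. The window runs from 250 bases before to 50 after the RefSeq start (chrX:45770218-45770517, minus strand, GRCh38.p14). Capitals mark motif matches.
MIR222HG promoter: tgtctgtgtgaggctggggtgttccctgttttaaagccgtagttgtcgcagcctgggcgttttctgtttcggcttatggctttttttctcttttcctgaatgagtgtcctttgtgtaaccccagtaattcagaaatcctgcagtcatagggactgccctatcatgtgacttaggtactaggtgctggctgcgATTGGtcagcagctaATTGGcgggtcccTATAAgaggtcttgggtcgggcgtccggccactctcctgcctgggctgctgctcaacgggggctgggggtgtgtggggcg

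Both strands were searched, and no match overlapped another. TATAA occurred once, at -30 from the start, and is held by 20.4% of the 35116 promoter windows of this length. The CCAAT box (CCAAT, read here on the other strand as ATTGG) occurred 2 times, at -58 and -43, and is held by 34.6%. The AP-1 motif TGANTCA and the cyclic AMP element TGACGTCA had 0 matches in this window, against 7.71% and 1.85% of all windows.

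Of the genes known to act upstream of the pair, 13 were listed, 13 were measured and 8 passed the level filter. JUN, the AP-1 subunit, read 4.98 with G536S, 6.91 with wild type and 4.66 in empty vector cells. FOSL1, another AP-1 subunit, read 1.62, 2.29 and 1.38 in the same order. Both were highest with wild type, as MIR221 and MIR222 were. Unlike the pair, neither was below the empty vector with G536S, where JUN differed by 0.32 and FOSL1 by 0.24.

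Against the empty vector, JUN was higher by 2.25 and FOSL1 by 0.91 with wild type, and against wild type they differed by -1.93 and -0.67 with G536S. MET, the receptor for hepatocyte growth factor, read 4.67 with G536S, 4.68 with wild type and 4.07 in empty vector cells, so it was higher with both constructs by about the same size (0.61 with wild type, 0.61 with G536S). Against the empty vector, JUNB differed by -0.12 with wild type and -0.46 with G536S, and JUND by 0.20 and -0.01. FOSB differed by at most 0.08 in size in any comparison. The NF-kB subunits RELA and NFKB1 differed by at most 0.11 in size in any comparison. FOS, FOSL2, ESR1, MYCN and ZBTB16, a repressor of the pair in melanoma, were below the filter.

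Of the 8 regulators past the filter, 3 were at least 1.5-fold higher and 0 lower with wild type against empty vector (all genes 5.42% and 1.79%). With G536S against empty vector 1 was higher and 0 lower (6.07% and 2.08%), and with G536S against wild type 0 were higher and 2 lower (2.17% and 1.81%). Their medians were 0.13, -0.02 and -0.14, beside 0.08, 0.10 and 0.01 for all genes past the filter. After quantile normalization and cyclic loess MET was below 1.5-fold with both constructs, which left 2 regulators higher with wild type and 0 with G536S.

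Reported targets are messages that one or both miRNAs are known to lower in some cell type. Of 29 listed, 27 were measured and 17 passed the filter. DDIT4, an inhibitor of mTORC1 reported as a miR-221 target in liver cancer, read 4.30 with G536S, 5.92 with wild type and 4.89 in empty vector cells. It had the same order of arrays as MIR221, with a difference from the empty vector of 1.03 on the wild-type array and -0.59 on the G536S array, and of -1.61 between G536S and wild type. TIMP3, an inhibitor of metalloproteases, read 4.06 with G536S, 4.76 with wild type and 4.23 in empty vector cells, and its difference of G536S from wild type was -0.70. Both of these targets were thus highest on the wild-type array, where the precursors were highest too. Of the 17 targets past the filter, 12 were above the empty vector with wild type. The others were below it, among them KIT (-0.16) and HDAC6 (-0.13). Whether the miRNAs had a part in these differences was not tested.

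CDKN1B, the cell cycle inhibitor, read 3.71 with G536S, 3.74 with wild type and 3.70 in empty vector cells, and its differences were 0.04 in size at most. KIT, the stem cell factor receptor, read 2.79 with G536S, 2.69 with wild type and 2.85 in empty vector cells. BCL2L11, a BH3-only protein that promotes apoptosis, read 2.68, 2.81 and 2.78 in the same order. None of these 3 messages was 1.5-fold apart. A miRNA can lower a protein with little change in its message, and protein was not measured.

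At the other end, HDAC6, a cytoplasmic deacetylase, had the highest difference among the targets for G536S against wild type (0.47), followed by MDM2, a ubiquitin ligase for p53 (0.45). TP53BP2, which binds p53, was the highest for G536S against the empty vector (0.57). Of the 17 targets past the filter, 1 was at least 1.5-fold higher and 0 lower with wild type against empty vector, 0 higher and 1 lower with G536S against empty vector, and 0 higher and 2 lower with G536S against wild type. The shares over all genes are those given for the regulators. The medians of the 17 were 0.08, 0.08 and 0.04 in these comparisons, beside 0.08, 0.10 and 0.01 for all genes.

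Genes of miRNA processing were the third list, with 14 of 16 measured and 14 past the filter. DROSHA read 5.76 with G536S, 5.81 with wild type and 5.72 in empty vector cells, and DICER1 read 6.08, 6.10 and 6.13 in the same order. XPO5, which exports hairpins from the nucleus, read 6.70, 6.74 and 6.77. These 3 differed by less than 0.1 in size in every comparison.

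AGO4, an Argonaute, read 3.21 with G536S, 3.49 with wild type and 2.79 in empty vector cells and was the 1 member at least 1.5-fold higher with wild type (0.70). It fell short of that size after quantile normalization and cyclic loess. TARBP2, a DICER1 partner, read 2.24 with G536S, 1.96 with wild type and 2.57 in empty vector cells and was the 1 member at least 1.5-fold lower with wild type (-0.62). AGO2, the slicing Argonaute, was higher by 0.49 with G536S against empty vector. No member was 1.5-fold apart between G536S and the empty vector or between G536S and wild type. Over all genes 5.42% were 1.5-fold higher and 1.79% lower with wild type against empty vector, so 1 higher of 14 is near the background. The share of 1 lower of 14 is above 1.79% but rests on 1 gene. The count of 1 lower was the same after quantile normalization and cyclic loess. The list's medians were 0.07, 0.08 and -0.03, beside 0.08, 0.10 and 0.01 for all genes.

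**Figure D5:**
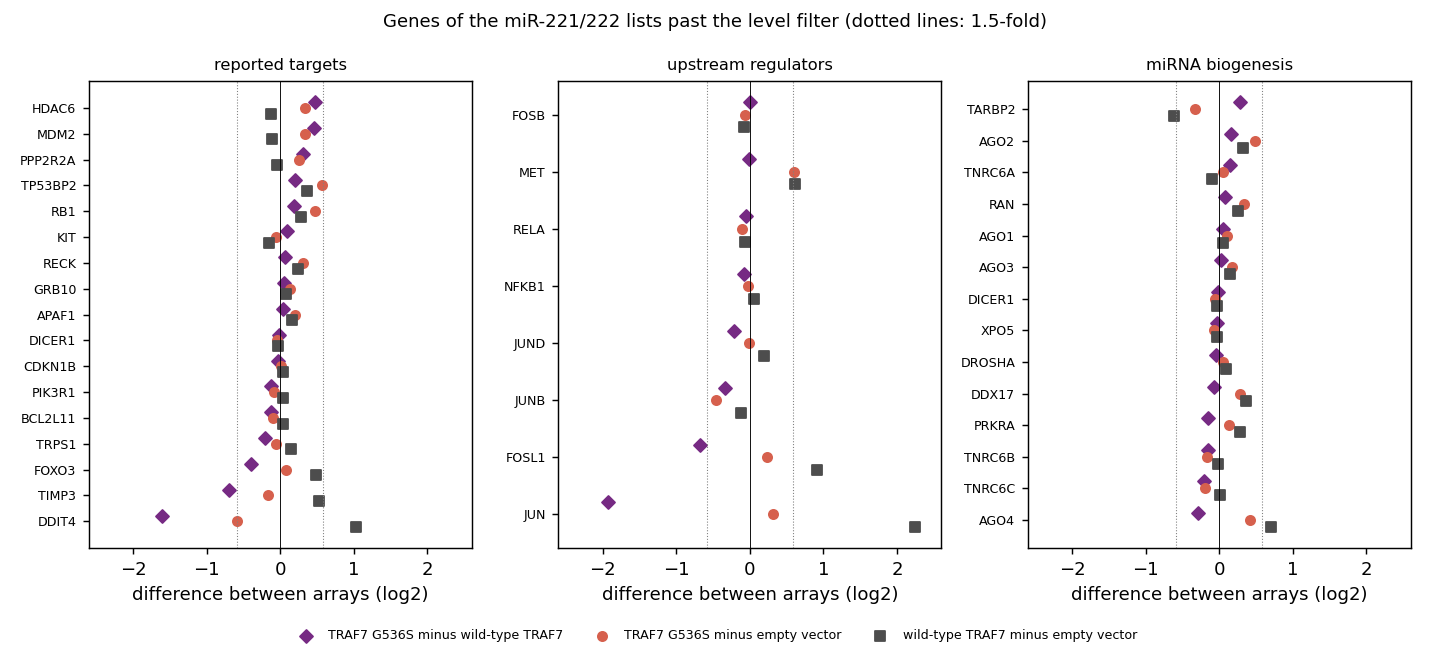
Differences between arrays (log2) of the members past the level filter of 3 lists (17 reported targets, 8 upstream regulators, 14 miRNA processing genes), with purple diamonds for G536S minus wild type, orange circles for G536S minus empty vector, grey squares for wild type minus empty vector and dotted lines at 1.5-fold. DDIT4 among the targets and JUN and FOSL1 among the regulators lie low for G536S minus wild type and high for wild type minus empty vector, while DROSHA, DICER1 and XPO5 lie at 0.

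Likeness of pattern was measured as the Euclidean distance, over the 3 arrays, between each gene's values minus their mean and the same for the average of the 2 members. The members set this average, so their own distance to it is not compared with that of other genes. Of 11196 other genes past the filter, the nearest were DDIT4 (0.196), the secreted protease ADAMTS1 (0.238), the matrix glycoprotein TNC (0.302), CHAC1, which degrades glutathione (0.309), SGPP1, a sphingosine phosphate phosphatase (0.325), and the histone demethylase KDM4D (0.429). With 3 arrays such a distance rests on 2 independent differences per gene.

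ADAMTS1 read 3.26 with G536S, 4.62 with wild type and 3.87 in empty vector cells. TNC read 1.49, 2.98 and 1.92, and CHAC1 read 1.92, 3.28 and 2.36 in the same order. All 3 were highest with wild type and lowest with G536S. Over all 11198 genes, 4 were at least 1.5-fold higher with wild type and at least 1.5-fold lower with G536S against the empty vector, namely MIR221, DUSP1, DDIT4 and ADAMTS1. Centring each array on its median left MIR221 and DUSP1, and quantile normalization added CHAC1. MIR222 was not among them, since its G536S difference was -0.43.

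Among the 666 precursors of similar level to either member, the nearest patterns were those of MIR548H2 (0.570), MIR3689A (0.656), MIR4324 (0.748), MIR92B (0.759), MIR29B2 (0.791) and MIR941-1 (0.804). MIR548H2 read 1.31 with G536S, 2.20 with wild type and 1.65 in empty vector cells. MIR92B read 1.12, 1.74 and 1.58, and MIR29B2 read 0.94, 1.52 and 1.09, both close to the precursor background with G536S. MIR924, with a mean of 3.46, lay between the windows of MIR222 and MIR221. It is not among the 666, so this ranking does not cover it. It differed by 0.21 with wild type and -1.21 with G536S from the empty vector, and by -1.42 between G536S and wild type. The ranking therefore does not show that MIR548H2 was the nearest of all precursors past the filter.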

How the data were processed

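RNA of 3 stably transduced HEK293T cultures was measured on Affymetrix arrays, with 1 array per group. The authors deposited log2 intensities per probe set made with RMA, per the submitters' processing notes. No source used here gives the RMA version or the array's build. Base 2 was inferred, since the highest value, 12.57, would as a natural log lie beyond what a 16-bit scanner records (11.09). No depth exists for arrays.

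Names came from the platform annotation (23871 probe sets name 1 gene), with symbols updated through Entrez IDs in RefSeq. The highest-mean probe set was taken per gene. Precursor genes are symbols starting with MIR and a digit, or MIRLET7, without host genes. The level filter, windows and named genes followed set rules: members, neighbours (4 a side), nearest patterns (6), precursors at both ends (3), and list members 1.5-fold apart. Other genes were named after their values were seen. Members and lists were chosen with earlier results of these data known, and lists come from general knowledge. Differences are one array minus another. Alternatives were other scalings, a floor, filters, windows and gaps. Counting was tested on simulated data. Python 3.11.15, numpy 2.4.6, pandas 2.3.3, biopython 1.88, matplotlib 3.10.9, R 4.3.3 and limma 3.58.1 were used.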

Additional observations from a re-analysis of the deposited data

Results flagged for a closer look

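MIR221, MIR222 and DDIT4 lay above the empty vector array with wild-type TRAF7 and below it with G536S, while the 2 constructs were at least 2-fold apart. That pattern was held by 22 of the 11198 genes past the filter, with ADAMTS1, TNC and CHAC1 also among them. Of the 169 precursors 3 held it, the members and MIR924. The difference of G536S from wild type was -2.24 for MIR221, -1.13 for MIR222 and -1.61 for DDIT4. With 1 array per group, the opposite directions rest on single arrays and the difference was not tested.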

How the results depend on the processing

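The members' differences kept their direction under the 5 alternatives run on them (quantile normalization, cyclic loess, median centring, a floor at 0.86, averaging the probe sets of a gene). The floor and the averaging could not change them, since each member has 1 probe set and reads above the floor on every array. For wild type minus empty vector the members' differences ranged from 0.84 to 0.99 (MIR221) and 0.57 to 0.72 (MIR222), and for G536S minus empty vector from -1.42 to -1.24 and -0.53 to -0.40. No paired analysis was possible because each group has 1 array, and no replicate could be left out. Of 198 alternatives 158 stayed within the robust SD of the precursors' differences or within 1.5 times the count, 40 did not and 0 reversed. Most of the 198 are counts, which have no direction, so only the members' differences could have reversed. The 158 include the runs of the floor and the averaging on the members, whose outcome was fixed.

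Precursors as far as a member in its direction, among all past the filter, numbered 1 for MIR221 with wild type against empty vector, 1 with G536S against empty vector, and 1 for MIR222 with G536S against wild type. In a 0.5 window MIR222 had 2 and 9 in the comparisons with the empty vector, wild type first. After quantile normalization and then cyclic loess, genes with wild type against empty vector numbered 350 and 366 (1.5-fold higher), 383 and 347 (1.5-fold lower), 53 and 58 (2-fold higher) and 38 and 34 (2-fold lower). With G536S against empty vector they were 353 and 389, 498 and 442, 53 and 60, and 56 and 51 in the same order. With the filter at the 75th percentile (2.87) these 4 counts were 312, 88, 51 and 4 for wild type against empty vector, 366, 133, 57 and 15 for G536S against empty vector, and 122, 99, 19 and 16 for G536S against wild type, where fewer genes were counted. Under quantile normalization and cyclic loess, processing genes 1.5-fold higher with wild type and regulators 1.5-fold higher with G536S, against the empty vector, numbered 0. Regulators 1.5-fold lower with G536S against the empty vector numbered 1 after quantile normalization. With the stricter filter, processing genes lower with wild type numbered 0, and regulators lower with G536S against wild type 1. For the rescalings the cause was not tested.

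MIR222 lies near background with G536S, which limits the size its difference can reach.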

Other observations

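MIR924, a precursor whose host transcript MIR924HG was measured separately, read 2.58 on the G536S array, 4.001 on the wild-type array and 3.79 on the empty vector array. MIR924HG read 1.89 on the G536S array, 2.80 on the wild-type array and 1.44 on the empty vector array. Both were lower with G536S than with wild type, by differences of -1.42 and -0.90. Against the empty vector they differed in direction with G536S, at -1.21 for the precursor and 0.45 for the host. Of the other hosts past the filter that share a name with a measured precursor, G536S minus wild type was 0.44 for MIR570 and 0.15 for MIR570HG, and 0.21 for MIR550A3 and -0.53 for MIR550A3HG.

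MIR3619, MIR378I and MIR574 were lower on both construct arrays than on the empty vector array. MIR3619 read 1.93 on the G536S array, 1.20 on the wild-type array and 3.47 on the empty vector array. MIR378I read 3.20, 2.24 and 3.67, and MIR574 read 2.06, 1.72 and 3.14 in the same order. These comparisons share the single empty vector array.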
